A study of Mus musculus with 7 samples.

Results

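TRiC, also called CCT, is the chaperonin of the eukaryotic cytosol, and its 8 subunits are encoded by Tcp1, Cct2, Cct3, Cct4, Cct5, Cct6a, Cct7 and Cct8. The members were taken by symbol from the table of read counts, which holds 26586 gene symbols, and all 8 were present. They were followed across 7 single mouse embryos of the C57BL/6 strain at the morula stage, 3 days post coitum. Every embryo came from a mating of L13a+/- mice, so the embryos may differ in L13a genotype, and the labels give none of them a genotype, sex or litter. They were collected from the oviduct or uterus without treatment. The embryos form 1 group, named replicates 1 to 7, and there is no wild-type group, so no condition was compared.

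TRiC is a double ring in which each ring holds every subunit once, in a fixed order around a central chamber. ATP binding and hydrolysis close the chamber over an unfolded protein, and actin and tubulin are its best known substrates. Prefoldin and phosducin-like proteins deliver or release particular substrates. Cells of the cleaving embryo use actin and tubulin for spindles, cleavage furrows and the compaction of the morula.

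Libraries differed widely in depth, and replicates 4 and 6 stood at the ends of the range. Total counts ran from 139619 in replicate 6 to 33123742 in replicate 4, a 237-fold range, and the genes with a count ran from 1749 to 12064 in the same embryos. After all libraries were thinned to 139619 reads, replicate 4 still had the most genes, 8533. Levels are given as CPM, the count of a gene scaled to the total count of its library. A count of 0 allows a level of up to 3 counts, equal to 0.0906 CPM for replicate 4 and 21.5 CPM for replicate 6. Intervals are 95% Poisson or Clopper-Pearson intervals and cover only the counting error of reads. The libraries carry no molecular identifiers, so reads copied from the same molecule cannot be told apart. For numbers of RNA molecules the intervals may therefore be too narrow. Genes with a mean of 1 CPM or more were kept for comparison, 11810 in all, and all 8 subunits were among them with or without replicate 4.

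The upstream sequence of the subunits is shown first because the genes, though their products form 1 complex, lie on 8 different chromosomes. RefSeq windows of GRCm38.p6 were matched for 7 of the 8 genes, Cct4 not among them. The 250 bases before the most upstream RefSeq start were searched on both strands. Annotated exons cover 250 of those bases for Tcp1 and Cct6a, 245 for Cct5, 134 for Cct3, 125 for Cct8, 29 for Cct7 and 0 for Cct2. The Tcp1 and Cct6a windows lie inside the spans of these genes in GENCODE M21, so they are not upstream of the first start annotated there. The GC box GGGCGG was found in 7 of 7 windows and in 33.0% of 27025 promoters of the same length. The CCAAT box was found in 4 of 7 (Tcp1, Cct3, Cct6a and Cct7) and in 34.5% of promoters, and at least 2 copies in 3 of 7 and 10.5%. The ETS core CCGGAAG was in the Cct2 and Cct8 windows, and in 7.07% of promoters. Neither the TATA box TATAAA (12.98% of promoters) nor the heat shock element core GAANNTTC (6.79%) was found in these windows. No match of one motif overlapped a match of another in the 7 windows. The 3 stretches below lie outside every annotated exon and show the contrast between Cct2, with 4 GC boxes and no CCAAT box, and Cct3 and Cct7, with several CCAAT boxes. Capitals mark CCAAT or its complement ATTGG, and GGGCGG or its complement CCGCCC, all read 5′ to 3′ on the strand of the gene.
Cct2, chr10:117063853-117064102, minus strand: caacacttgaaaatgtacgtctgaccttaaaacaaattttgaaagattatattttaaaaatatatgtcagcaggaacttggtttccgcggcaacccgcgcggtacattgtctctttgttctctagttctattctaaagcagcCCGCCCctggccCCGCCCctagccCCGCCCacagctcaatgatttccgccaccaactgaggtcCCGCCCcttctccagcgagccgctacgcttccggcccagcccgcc
Cct3, chr3:88297000-88297115, plus strand: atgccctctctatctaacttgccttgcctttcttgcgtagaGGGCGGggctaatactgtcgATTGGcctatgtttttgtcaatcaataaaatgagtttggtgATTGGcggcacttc
Cct7, chr6:85451284-85451504, plus strand: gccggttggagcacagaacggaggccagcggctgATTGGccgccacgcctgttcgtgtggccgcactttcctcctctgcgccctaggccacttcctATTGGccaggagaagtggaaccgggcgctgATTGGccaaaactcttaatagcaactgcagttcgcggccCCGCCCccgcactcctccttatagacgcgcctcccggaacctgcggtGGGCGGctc

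In 1 embryo, replicate 4, all 8 subunits were abundant together. Their summed level was 155, 763, 478, 6302, 305, 0 and 373 CPM in replicates 1 to 7. Replicate 4 stood 8.26-fold above replicate 2, the next highest, and 40.7-fold above replicate 1, the lowest embryo with any TRiC count. In replicate 6 no subunit had a count, so replicate 4 was at least 293-fold higher, taking 3 counts in that library as the limit for the sum. The 95% Poisson intervals were 6275 to 6329 CPM in replicate 4 and 750 to 777 CPM in replicate 2. No interval of 1 embryo overlapped that of another, the nearest being replicates 5 (285 to 327) and 7 (363 to 382). Error between libraries of the same embryo is not in these intervals and could not be measured. Without replicate 4 the range from the highest embryo to that limit was at least 35.5-fold. In whole embryos, fewer cells expressing a gene and less RNA per cell cannot be told apart.

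Each subunit had its highest level in replicate 4. This held for 8 of 8 subunits against 29.6% of kept genes, and for 8 of 8 with a level at least 2-fold above every other embryo against 22.0% of kept genes. The fold over the next embryo ran from 2.29 for Tcp1 to 34.2 for Cct7, with a median of 6.08. The 2600 kept genes that were highest in replicate 4 and had a count in a second embryo had a median of 3.08. Without replicate 4 the summed level was highest in replicate 2, where 4 of 8 subunits had their highest level. The share of kept genes highest in replicate 2 was not computed, so that count has no background to be read against.

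**Figure D1:**
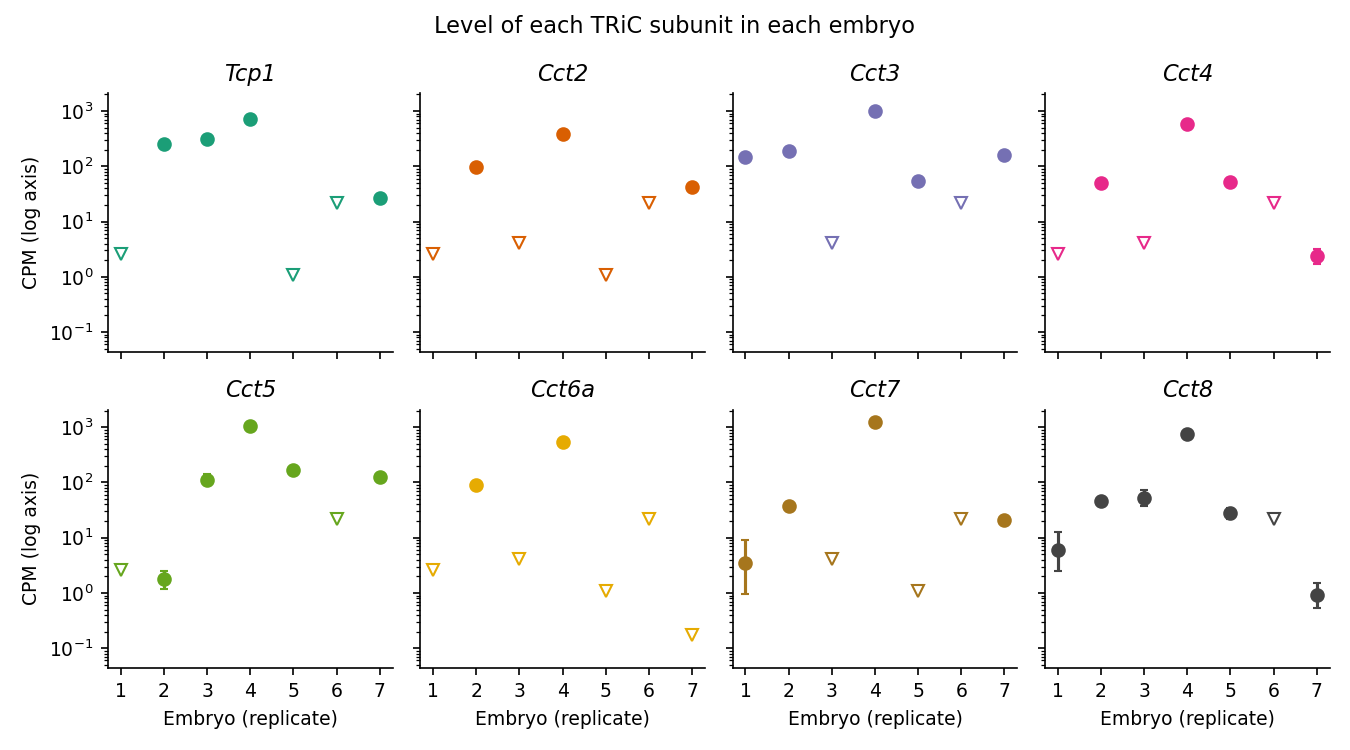
CPM of each TRiC subunit (log axis) in each of the 7 embryos. Filled points are measured levels with 95% Poisson intervals, open triangles mark a count of 0 at the level that 3 counts would give in that library, and every subunit is highest in replicate 4.

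Subunits of the side of the ring that binds ATP tightly (Tcp1, Cct2, Cct4 and Cct5) differed in where they were counted. Tcp1, the alpha subunit, first known from the mouse t complex, was at 0, 250, 313, 716, 0, 0 and 26.6 CPM in replicates 1 to 7. It led the complex in replicate 3 and had no count in replicates 1, 5 and 6. Cct2, the beta subunit, was at 0, 98.6, 0, 381, 0, 0 and 41.4 CPM. It was thus counted only in the 3 deepest libraries, replicates 2, 4 and 7.

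Cct4, the delta subunit, which contacts actin in the chamber, was at 0, 48.9, 0, 589, 51.4, 0 and 2.39 CPM. Its level in replicate 7 rested on 41 counts and lay far below those of replicates 2 and 5, although replicate 7 had the larger total count. Cct5, the epsilon subunit, mutated in a hereditary sensory neuropathy of humans, was at 0, 1.76, 113, 1037, 171, 0 and 123 CPM. Replicate 2, the embryo of the second highest TRiC sum, had only 29 counts of Cct5, fewer than replicate 3 had (82) from a far smaller library.

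Subunits of the opposite side of the ring (Cct3, Cct6a, Cct7 and Cct8) were spread as unevenly. Cct3, the gamma subunit, was at 145, 190, 0, 1016, 54.6, 0 and 157 CPM, and was the main subunit counted in replicate 1. Cct6a, the zeta subunit, which has a testis paralogue in Cct6b, was at 0, 89.95, 0, 550, 0, 0 and 0 CPM. It was the subunit counted in the fewest embryos, replicates 2 and 4, and 0 of 17122136 counts in replicate 7 limits it there to 0.175 CPM.

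Cct7, the eta subunit, was at 3.50, 36.9, 0, 1261, 0, 0 and 21.03 CPM, its level in replicate 4 being the highest single value of the complex. Cct8, the theta subunit, whose overexpression raises the amount of assembled TRiC in human pluripotent cells, was at 6.12, 47.0, 52.4, 754, 27.9, 0 and 0.934 CPM. It was counted in more embryos than any other subunit, 6 of 7, though on only 7 counts in replicate 1 and 16 in replicate 7. The paralogue Cct6b had 1.36 CPM in replicate 4 and no count elsewhere.

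No subunit was counted in all 7 embryos, against 3.69% of kept genes. A count in 4 or more embryos was found for 6 of 8 subunits, against 44.7% of kept genes, with Cct2 and Cct6a below that. Of the 56 subunit levels, 23 were a count of 0. All 8 fell in replicate 6, where 85.2% of kept genes were also at 0, none in replicate 4, and 15 of 40 in the other 5 embryos. The 8 subunits had 8 different sets of embryos with a count. Shares of kept genes at 0 outside replicate 6, and their sets of embryos, were not computed. These counts therefore do not set the subunits apart from other genes. Thinning the libraries to 139619 reads left 8 subunits with a count in replicate 4, from 923 reads in all. The same depth left 7 subunits in replicate 2, 5 in replicate 7, 4 in replicate 5 and 3 each in replicates 1 and 3. Over all genes of the table, that depth left 8533 counted in replicate 4, 6939 in replicate 2 and 6669 in replicate 7. It left 2334 in replicate 5, 3968 in replicate 1 and 2858 in replicate 3, so detection of all genes also differed between embryos.

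Subunit RNA was most evenly shared in replicate 4 and less evenly in the other embryos with any TRiC count. These are shares of RNA reads, and subunit proteins and the assembled complex were not measured. Reads per kilobase of transcript (CPM per kb) were used to compare subunits, first with the longest transcript of the basic GENCODE set, 1853 to 2484 bases long. In replicate 4 the highest subunit, Cct5 at 560 CPM per kb, was 2.88-fold above the lowest, Cct2 at 194. Cct5 made up 19.6% of the summed level there, against 12.5% if all 8 were equal. In replicate 2, the other embryo with all 8 subunits, Tcp1 at 102 CPM per kb was 107-fold above Cct5 at 0.951.

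In the remaining embryos 1 or 2 subunits carried most of the counts. By counts, with no correction for length, Cct3 made up 93.8% of TRiC counts in replicate 1 (Clopper-Pearson interval 89.2 to 96.9%). Tcp1 made up 65.4% in replicate 3 (60.2 to 70.4%) and Cct5 56.2% in replicate 5 (52.7 to 59.5%). In replicate 7 Cct3 made up 42.1% (40.9 to 43.4%), and in replicate 4 the largest share was that of Cct7, 20.01% (19.8 to 20.2%). By counts the leading subunit was thus Cct3, Tcp1, Tcp1, Cct7, Cct5 and Cct3 in replicates 1, 2, 3, 4, 5 and 7. Per kb of the longest transcript Cct5 led replicate 4, and per kb of all exons Cct5 led both replicate 4 and replicate 7.

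**Figure D2:**
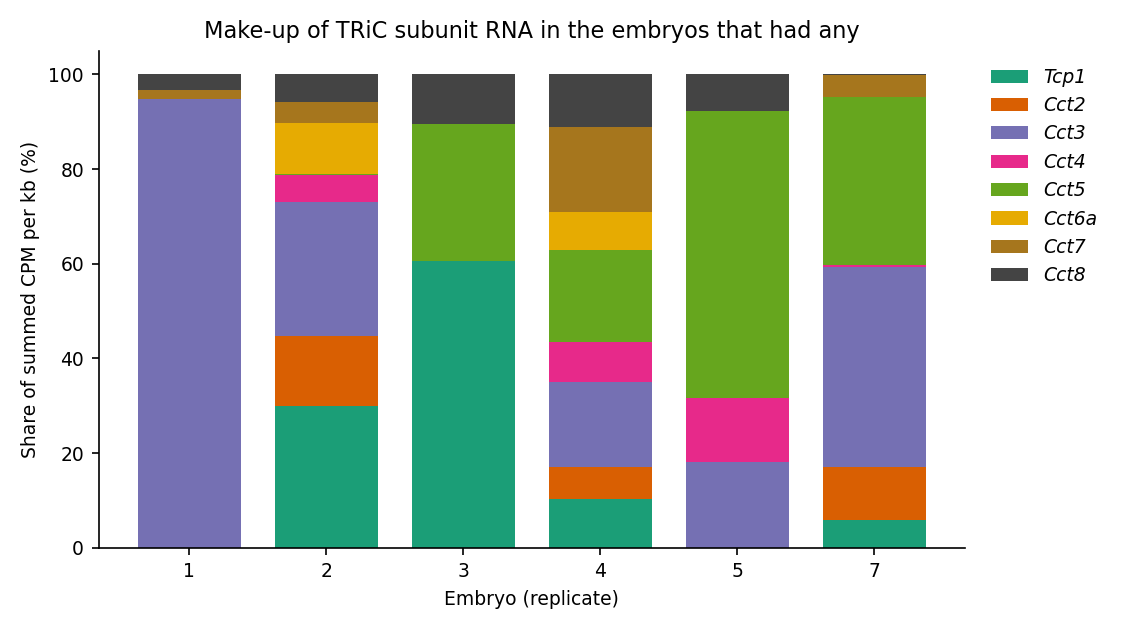
Share of each subunit in the summed CPM per kb of TRiC (longest transcript as length) in the 6 embryos with any TRiC count; bars add to 100%. Replicate 4 holds all 8 subunits with none above 19.6%, while Cct3 takes nearly all of replicate 1.

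The order of the subunits over all embryos was not tested, and each mean had a wide spread between embryos. With the longest transcript as length, mean levels over 7 embryos ran from 113 ± 181 CPM per kb for Cct3 and 111 ± 201 for Cct5 through 77.4 ± 194 for Cct7, 76.2 ± 109 for Tcp1 and 53.0 ± 116 for Cct8. Below these were Cct4 with 39.8 ± 87.5, Cct2 with 38.0 ± 71.5 and Cct6a with 37.3 ± 83.5 (SD, n = 7). Every neighbouring pair in this order differed by less than the SD of either subunit. With all annotated exons as length, which adds retained introns and gives Cct7 6778 and Cct3 6370 bases, Cct5 was first (74.7 ± 135 CPM per kb) and Cct8 second (41.1 ± 89.8). The highest mean was 3.03-fold above the lowest with the first length and 3.18-fold with the second, and without replicate 4 the second ratio was 16.3-fold.

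Spread between embryos was larger for the subunits than for most genes. On the log2 scale used here and for the distances below, a subunit's count of 0 stands at -2.07 in every library. The limit of each library, such as 21.5 CPM in replicate 6, was not used there. The SD of log2 CPM over the 7 embryos was 3.99 for Cct8, from 4.81 to 5.06 for Cct4, Cct7, Cct3, Cct2, Cct5 and Cct6a, and 5.47 for Tcp1. The median was 5.004, against 3.63 over kept genes and 4.24 over the 4844 other genes of like mean level. All 8 subunits lay above the median of kept genes, but Cct8 lay below that of genes of like mean level. In edgeR's quasi-likelihood fit, a one-sided F test set each gene's dispersion against the trend at its abundance. With it 0 of 8 subunits and 0 of 11810 genes (0%) had an adjusted p under 0.05, and 0 subunits and 68 genes had an unadjusted p under 0.05. The lowest p of a subunit was 0.0852 for Cct6a (edgeR, adjusted p 0.869), and all 8 had the same adjusted p. The authors' log2 table tested with limma and the dispersion outliers of DESeq2 also gave 0 subunits. The common dispersion was 9.02, and in counts simulated with a dispersion of that size the test recovered no changed gene. These counts of 0 therefore say nothing about how stable any subunit was.

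**Figure D3:**
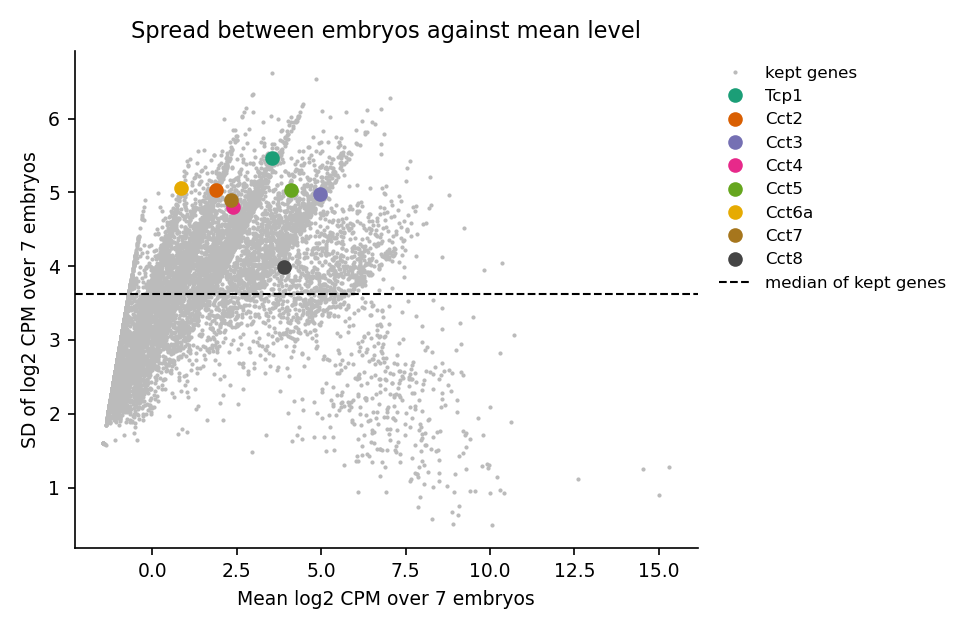
SD of log2 CPM against mean log2 CPM over the 7 embryos for the 11810 kept genes (grey) and the 8 subunits (coloured). All subunits lie above the dashed line, the median SD of 3.63 over kept genes of any mean level.

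How closely the subunits followed one another across embryos changed when the libraries were thinned to equal depth. Likeness was measured as a distance, the root mean square over 7 embryos of the difference between a gene's log2 CPM and the mean of the other subunits, each centred on its own mean. Smaller means more alike. The 8 subunits had a median distance of 2.59 log2 units and the 7708 other genes with a mean of 10 CPM or more one of 3.64. Cct2 was closest, at 2.33, and 14.1% of those genes were closer to the TRiC mean than it was. Cct7 (2.34), Cct4 (2.48), Cct6a (2.49) and Cct8 (2.68) came next, and Cct3 (3.51), Tcp1 (3.68) and Cct5 (4.12) were farthest. For Cct5, 64.3% of the other genes were closer. At the deposited depth 0 of the 8 subunits lay among the closest 10.0% of genes, and the median subunit had 21.7% of the other genes closer to the TRiC mean. With all libraries thinned to 139619 reads, 5 of 8 lay among the closest 10.0%, the median subunit had 3.73% of genes closer, and all 8 were closer than the median gene (median distance 0.825, against 2.01 for the other genes). From the authors' deposited log2 values, 2 of 8 lay among the closest 10.0%, and all 8 were closer than the median gene. Of the 28 pairs of subunits, Cct2 and Cct7 were most alike (1.68) and Tcp1 and Cct3 least alike (5.92).

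The 10 genes outside the complex that came closest to the TRiC mean were Ssb, Ddx56, Dnttip2, Lias, Tsr2, Iqgap1, Rbm47, Scnm1, Timeless and Ranbp1, at distances from 0.879 to 1.23 over the 7 embryos. Ssb (La), which binds the ends of new RNA polymerase III transcripts, was at 3.50, 39.7, 2.76, 267, 2.53, 0 and 8.99 CPM in replicates 1 to 7. Ranbp1, a partner of the transport GTPase Ran, was at 10.5, 26.2, 4.13, 780, 3.26, 0 and 20.1 CPM. All 10 were highest in replicate 4 and not counted in replicate 6, a pattern that their choice by likeness to the TRiC mean favours.

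**Figure D4:**
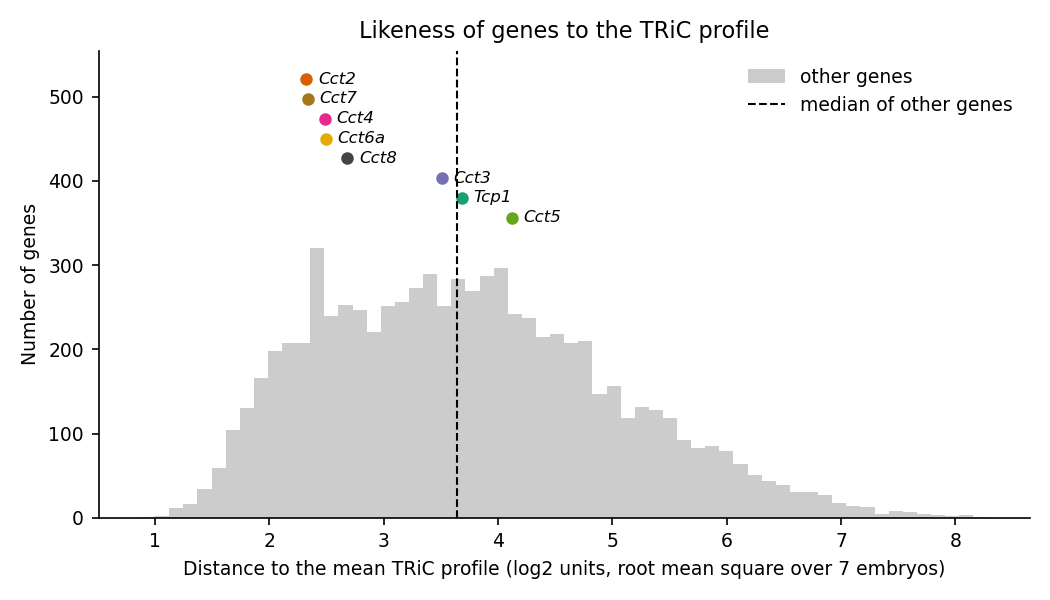
Number of genes (grey bars) by their distance to the mean TRiC profile, in log2 units, with the distance of each subunit to the mean of the other 7 as a coloured point; the height of a point has no meaning. Cct2, Cct7, Cct4, Cct6a and Cct8 lie well left of the dashed median of 3.64, and Tcp1 and Cct5 lie right of it.

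Genes that work with TRiC differed in their high embryo. No member of any list below passed edgeR's test of spread, which is as uninformative for them as for the subunits. Prefoldin, the holding complex that passes unfolded actin and tubulin to TRiC, summed to 490, 781, 136, 885, 1040, 85.9 and 401 CPM in replicates 1 to 7, and 3 of its 6 genes (Pfdn6 under an older symbol) were highest in replicate 4, against 29.6% of kept genes. Pfdn5, its most abundant gene, was at 376, 233, 0, 174, 1038, 85.9 and 232 CPM, with its highest level in replicate 5. Of the 4 phosducin-like cofactors, 3 were kept and all 3 were highest in replicate 4, where the list summed to 505 CPM against 0 to 191 CPM elsewhere. The most abundant, Txndc9, which binds TRiC, was at 255 CPM there and 0 in replicates 3 and 6.

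The 2 actin genes, but none of the tubulin genes or other substrates listed here, were counted in replicate 6, where TRiC was not. Actb, cytoplasmic beta-actin, was counted in all 7 embryos at 412, 630, 33.1, 7179, 408, 2242 and 423 CPM. The 2 actin genes summed to 8450 CPM in replicate 4, their highest, and to 4591 CPM in replicate 6, where TRiC had no count. Replicate 6 also had the highest sums of the maternal tissue markers given below, and the source of its actin reads was not tested. Of the 12 tubulin genes 9 were kept and 3 of those were highest in replicate 4, a share near the 29.6% of all kept genes. Their sum was 707, 2710, 4127, 1428, 358, 0 and 1038 CPM. Tubb6, a beta-tubulin, made up most of the sum in replicate 3, at 4126 CPM.

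Among the 6 tubulin folding cofactors, 5 were kept and 1 was highest in replicate 4. Tbcc, which completes the release of the tubulin dimer, was the most abundant and stood highest in replicate 1, at 816 CPM. Of 11 other substrates, 3 were highest in replicate 4, again near that 29.6%, and the list's sum was highest there at 1727 CPM, against 0 to 1472 CPM elsewhere. Ccne1 (cyclin E1), the most abundant of these, was at 70.8, 239, 532, 252, 377, 0 and 535 CPM, and Cdc20, the activator of the anaphase-promoting complex, was at 5.25, 159, 0, 619, 152, 0 and 135 CPM.

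Other chaperones differed among themselves in the same way. Of 9 Hsp70 and Hsp90 partners and heat shock factors, 7 were highest in replicate 4, against 29.6% of kept genes. Their sum was 783, 1818, 1195, 20881, 2153, 4648 and 1059 CPM, and Hsp90ab1 was the most abundant. Stip1, which links Hsp70 to Hsp90, was at 1.75, 78.8, 63.4, 873, 136, 0 and 28.0 CPM. Hsf1, the factor that turns on heat shock genes and that TRiC binds, was at 413, 253, 0, 38.5, 793, 996 and 673 CPM, so replicate 4 was its lowest embryo but replicate 3. The mitochondrial chaperonin genes Hspd1 and Hspe1 summed to 200, 214, 70.3, 900, 490, 0 and 235 CPM. Hspe1 was the more abundant of them and was highest in replicate 5, at 490 CPM. Of 5 chaperonin paralogues and chaperonin-like genes only Mkks was kept, with 423 CPM in replicate 1 as its highest level.

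**Figure D5:**
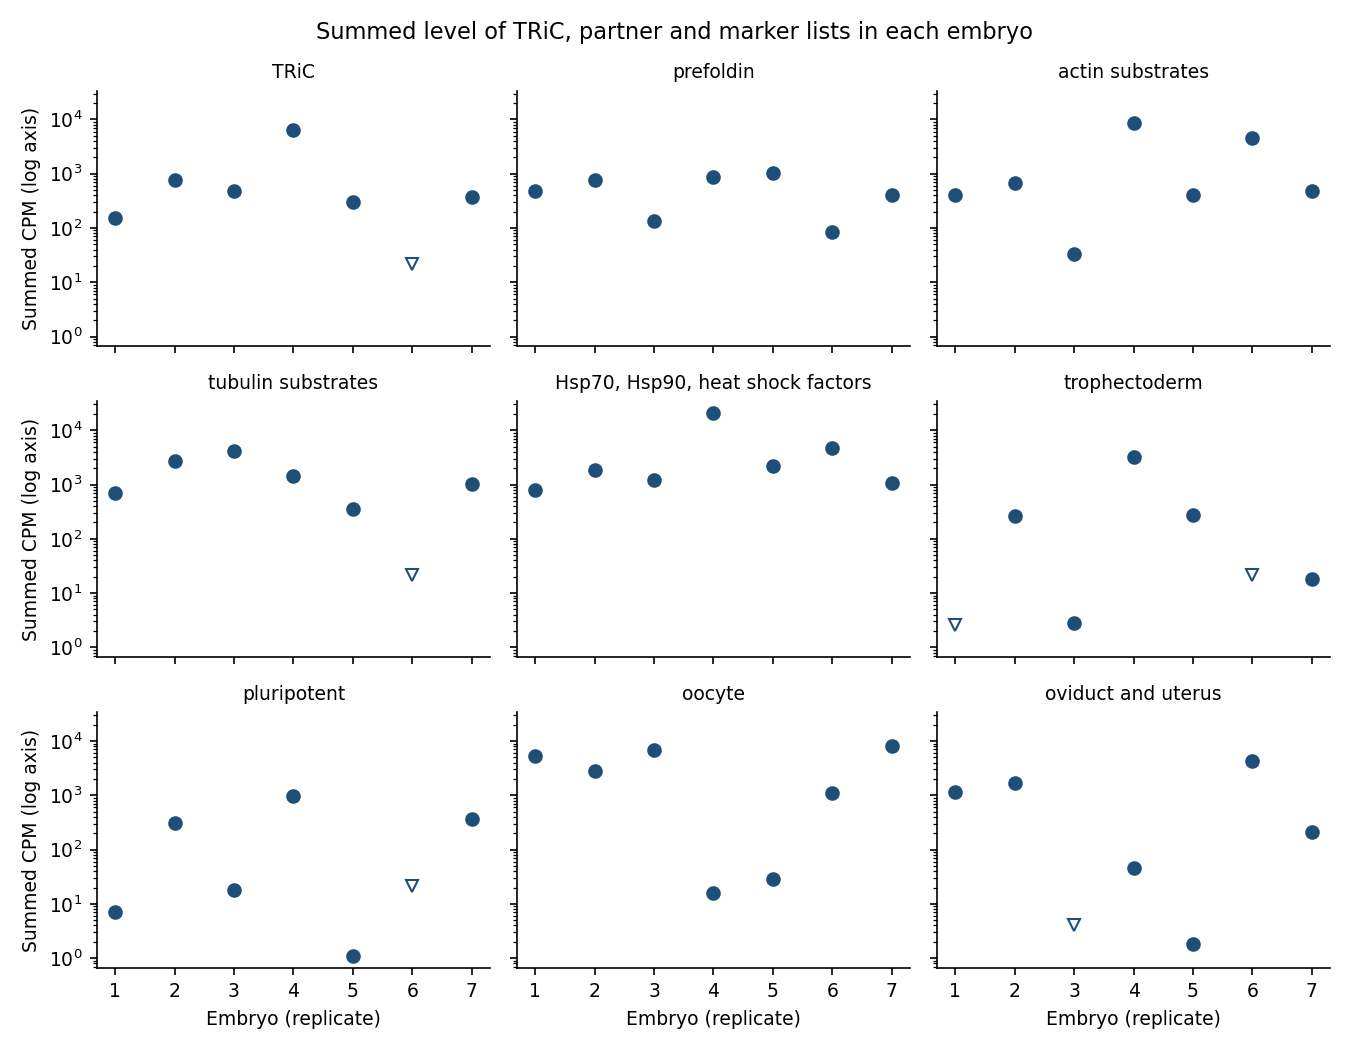
Summed CPM (log axis) of TRiC, of partner lists and of cell type marker lists in each of the 7 embryos; open triangles mark a sum of 0 at the level of 3 counts. TRiC, the Hsp70 and Hsp90 list, trophectoderm and pluripotent markers are highest in replicate 4, where oocyte markers are at 15.9 CPM.

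Markers of stage and of other cells moved with the TRiC level in part. Trophectoderm markers of the late morula summed to 0, 266, 2.76, 3202, 280, 0 and 18.5 CPM in replicates 1 to 7, with 7 of 8 counted in replicate 4 and 5 in replicate 2. Pluripotent cell markers summed to 6.99, 306, 17.9, 975, 1.09, 0 and 373 CPM, with all 6 counted in replicate 4. Cdx2, Eomes and Nanog had counts in replicate 4 and in no other embryo. Replicate 4 also had the most genes with a count, 12064. The share of kept genes counted there, or there alone, was not computed. Other markers of these lists were wider: Tfap2c was counted in 5 embryos and highest in replicate 5, Klf4 in 5 and highest in replicate 2, and Pou5f1 and Sox2 in 3 each. Oocyte markers summed to 5323, 2853, 6724, 15.9, 28.2, 1110 and 8118 CPM. They were thus low in replicate 4, which had the highest TRiC level, and in replicate 5, where TRiC was at 305 CPM.

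By list sums, markers of the mother's tissues were most abundant in replicate 6, though each sum there rested on few markers. Oviduct and uterine markers summed to 1153, 1721, 0, 45.7, 1.81, 4340 and 215 CPM, with 3 of 7 counted in replicate 6. Ovgp1 was not counted in replicate 6 and was highest in replicate 1, at 627 CPM. Stroma markers summed to 4348 CPM in replicate 6, and to between 0 and 42.8 CPM elsewhere. Only 2 of 5 were counted in replicate 6, and Dcn alone gave 4240 CPM. Blood and immune markers summed to 444 CPM in replicate 6, and to between 0 and 3.56 CPM elsewhere. The sum in replicate 6 came from 2 of 5 markers, Hbb-b1 (44 counts) and Csf1r (18 counts). In replicate 4 the stroma sum was 15.8 CPM from 1 of 5 markers and the blood and immune sum 0.574 CPM from 2 of 5, with Ptprc, Csf1r and Dcn at 0. The part of stage, of maternal RNA and of library depth in the TRiC levels was not tested.

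For 4 of the 8 subunits, reads could be shared with an overlapping protein-coding gene. Tcp1 lies on chromosome 17 from 12915701 to 12925067 (plus strand), Cct2 on chromosome 10 from 117051001 to 117063814 (minus), Cct3 on chromosome 3 from 88297116 to 88321767 (plus) and Cct4 on chromosome 11 from 22990519 to 23003780 (plus). Cct5 lies on chromosome 15 from 31590800 to 31601804 (minus), Cct6a on chromosome 5 from 129786998 to 129846371 (plus), Cct7 on chromosome 6 from 85451514 to 85468475 (plus) and Cct8 on chromosome 16 from 87483326 to 87495873 (minus), all in GENCODE M21 of GRCm38. No pair of subunits shared a stretch of 200 bases or more at 90% identity. The Cct3 transcript matched the pseudogene Cct3-ps1 on chromosome 4 (91.4% over 1650 bases) and that of Cct7 the pseudogene Gm5380 on chromosome X (93.5% over 569 bases), neither of them analysed here. Tcp1 overlaps Acat3 and Mrpl18, Cct6a overlaps Psph, Cct7 overlaps Pradc1 and Cct8 overlaps Usp16, each on the opposite strand. Whether counting used the strand is unknown, so Tcp1, Cct6a, Cct7 and Cct8 are uncertain to that extent. Tcp1 also matched Acat3 (100% over 574 bases) and Acat2 (98.7% over 445 bases). Acat3 had at most 18 counts in any embryo, Psph at most 906 and Mrpl18 at most 13159. Usp16 had 23, 4215, 396, 6010, 232, 40 and 2116 counts in replicates 1 to 7, more than Cct8 in every embryo but replicate 4. That overlap is 192 bases, against 645 for Mrpl18 and Tcp1. Mrpl18 had more counts than Tcp1 in replicates 1, 5 and 7 (159, 3367 and 2096, against 0, 0 and 456). How many reads were shared was not measured. The low Cct8 counts, and with them its 6 of 7 embryos, are therefore uncertain, as are the low Tcp1 counts.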

How the data were processed

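RNA of 7 single embryos was evened out in amount, captured by oligo-dT and made into SMART-Seq v4 and Nextera XT libraries, per the labels' protocols. The deposited counts are whole reads per gene symbol with no normalization. The authors used HISAT2 2.0.5, featureCounts 1.5.0-p2, limma and GRCm38, per the submitters' processing notes; settings, annotation and strand were not given in the sources used here. Deposited log2 values were recomputed from the counts as quantile-normalized log2 CPM with an offset of 0.5 counts, to within 3.33e-13, and served as an alternative.

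Log2 CPM used TMM factors (edgeR 4.0.16, R 4.3.3) and a prior count of 2; single-gene CPM used library totals. The test of spread used edgeR's quasi-likelihood dispersions with Benjamini-Hochberg adjustment over all kept genes, and was tested on simulated data, where it recovered changed genes at low dispersion but none at the dispersion of these libraries; limma 3.58.1 and DESeq2 1.42.0 were alternatives. Near copies were sought with BLAST 2.17.0 in GENCODE M21 transcripts. Members, lists, tests and alternatives were chosen with earlier results of these data known. Genes named were the 8 subunits, the most abundant gene of each list, the 10 closest genes and list sums. Cct6b, Cdc20, Stip1, Hsf1 and the neighbours were picked after their values were seen, as were Ssb and Ranbp1 among the 10 closest. The single markers (Cdx2, Eomes, Nanog, Tfap2c, Klf4, Pou5f1, Sox2, Ovgp1, Ptprc, Csf1r, Hbb-b1, Dcn) were also picked after their values were seen. The labels do not say that embryos came from separate litters, so p-values measure only the spread between these samples.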

Additional observations from a re-analysis of the deposited data

Results flagged for a closer look

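One embryo lay far from the other 6 in 8 of the 17 sets of values examined (CPM and log2 CPM of each subunit, and the summed CPM). In each case it was replicate 4, the highest. The gap to the nearest embryo as a share of the whole range was 0.879 for the summed level, 0.741 for Cct2, 0.813 for Cct3, 0.913 for Cct4, 0.835 for Cct5, 0.836 for Cct6a, 0.971 for Cct7 and 0.931 for Cct8, all on the CPM scale. The critical value for 7 samples is 0.568, and chance flags about 1 in 20 sets of normally distributed values. CPM values are skewed, so that rate does not hold for them, and the share of kept genes flagged was not computed. Of kept genes, 29.6% were highest in replicate 4, and 22.0% were at least 2-fold above every other embryo there. The sets are not independent, since they share the library of replicate 4. Tcp1 on the CPM scale and all 8 subunits on the log2 scale stayed below that value.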

How the results depend on the processing

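In all 14 alternatives run, 0 subunits passed the test of spread, which recovered no changed gene in simulated data of this dispersion. The number counted in every embryo was 0, and from 0 to 1 when each embryo was left out in turn; the 1 was Cct8 without replicate 6. The fold from the highest summed level to the lowest embryo or its limit was 293. It was 672 with TMM library sizes, 291 with DESeq2 size factors, 268 without ribosomal RNA and Lars2 in the totals and 308 after thinning. It was 35.5 to 293 with each embryo left out in turn, and 40.7 without replicates 3 and 6. The cause of these shifts was not tested. Subunits highest in the embryo of highest sum numbered 8, or 4 to 8 with each embryo left out. Those lowest in the embryo of lowest sum numbered 8, 5 to 8 with each embryo left out, and 5 without replicates 3 and 6. For both counts the shares of kept genes with embryos left out were not computed. The median SD of log2 CPM was 5.004, 5.91 with a prior count of 0.5, 2.37 after thinning and 4.11 to 5.30 with each embryo left out. The median over kept genes was 4.49 with that prior count, 1.25 after thinning and 3.71 without replicate 4. The median distance was 2.59, and 0.825 after thinning (3.64 and 2.01 for the other genes). With each embryo left out it was 2.39 to 2.77, against 3.38 to 3.80 for the other genes. The median subunit then had 17.2 to 31.3% of the other genes closer to the TRiC mean, against 21.7% with all embryos. The 31.3% was without replicate 4, where 5 of 8 subunits were closer than the median gene. The ratio of the most to the least abundant subunit per kb ranged from 2.92 to 16.3, the highest without replicate 4. Planned as a ratio of medians over embryos, it had no value because the medians of Cct2 and Cct6a were 0, so means were used. The transcript length was an alternative chosen after seeing the data. No paired comparison of conditions was possible because the embryos form 1 group, and no paired test between subunits was run.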

Other observations

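In several of the windows searched lie exons of a gene read in the opposite direction. The levels of those neighbours in the 7 embryos were as follows. The Tcp1 and Cct6a windows lie inside the spans of these genes in GENCODE M21, so they are not upstream of the first start annotated there. Exons of Mrpl18, which encodes a mitochondrial ribosomal protein, cover all 250 bases searched before the RefSeq start of Tcp1. Mrpl18 was at 139, 187, 26.2, 397, 1218, 0 and 122 CPM in replicates 1 to 7, so it was counted in replicates 1 and 5, where Tcp1 was not. Psph, the phosphatase of serine synthesis, covers the 250 bases before the RefSeq start of Cct6a. It was at 0, 17.4, 0, 27.4, 0, 0 and 0 CPM and thus had counts in the same 2 embryos as Cct6a, replicates 2 and 4. Fam173b covers 245 of the 250 bases before Cct5. It had 656 counts in replicate 4 and none elsewhere, although Cct5 was counted in 5 embryos. B130034C11Rik covers 121 of the 250 bases before Cct8 and had no count in any embryo, although Cct8 was counted in 6. Tsacc and Pradc1, upstream of Cct3 and Cct7, were not analysed here. These neighbours were noticed in the data, no test was run on them. Psph overlaps Cct6a by 452 bases and Mrpl18 overlaps Tcp1 by 645 bases, so their counts are not fully separate without strand.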
